A study of Mus musculus with 2 samples.

Results

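*Brca1* and 8 genes listed as BRCA1 partners in homologous recombination were followed through the cell types of the postnatal mouse testis. The 9 genes, *Brca1*, *Bard1*, *Palb2*, *Brca2*, *Brip1*, *Rbbp8*, *Uimc1*, *Babam1* and *Rad51c*, were taken by symbol from the 32285 genes of the count tables, and all 9 were found. The data were 2 droplet single-cell libraries from whole testes at postnatal day 7 (PD7), 1 from a control male and 1 from a *Brca1* vKO male. The *Brca1* vKO genotype was *Brca1* f/- *Vasa-Cre*, in which the germ cell driver *Vasa-Cre* removes internal exons of the floxed allele from the gonocyte stage on. The other allele is null in every cell of that animal, so its Sertoli, stromal and myoid cells kept a single intact copy. Controls were littermates, whose alleles and strain are not given in the sources used here. With 1 animal and 1 library per genotype there was no replicate check and no test, and every interval below is an exact 95% interval that covers counting error only.

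Homologous recombination repairs broken or stalled DNA by copying an intact sister, and cells use it after replication has begun. BRCA1 pairs with BARD1 through their RING domains to form a ubiquitin ligase. PALB2 joins BRCA1 to BRCA2, and BRCA2 and RAD51C act in the steps that prepare single-stranded DNA for strand exchange. BRIP1 is a helicase and RBBP8 (CtIP) starts the trimming of DNA ends, and each binds the BRCT repeats of BRCA1. UIMC1 (RAP80) and BABAM1 (MERIT40) belong to the BRCA1-A complex, which recognises ubiquitin chains at breaks. In the testis, spermatogonia use BRCA1 to repair DNA damage and spermatocytes use several of these proteins in meiosis. The study of these mice held replication unlikely as the main source of spontaneous damage in forming undifferentiated spermatogonia.

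In the GRCm38 annotation, *Brca1* lies on chromosome 11 from 101488764 to 101551955 on the minus strand. *Brip1* and *Rad51c* are on the same chromosome, from 86058138 to 86201193 and from 87376645 to 87404954. *Bard1* lies on chromosome 1 (71027498 to 71103146), *Brca2* on chromosome 5 (150522630 to 150570329), *Palb2* on chromosome 7 (122107262 to 122132985), *Babam1* on chromosome 8 (71396861 to 71404619) and *Uimc1* on chromosome 13 (55027880 to 55100300). None of these 8 shared exon sequence with another protein-coding gene on either strand. A UMI counted for *Brca1* could come from an intact or a deleted transcript, because counts per gene do not separate them and the sources used here do not say which end of the transcript the kit read. The *Brca1* count was therefore no full check of the deletion.

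RefSeq promoter windows of 300 bases, 250 before and 50 after an annotated start on GRCm38.p6, were matched by symbol for 8 of the 9 genes, with 9 windows since *Rad51c* has 2. They were searched on both strands for TTTNNCGC, a loose form of an E2F-type site in which N is any base. The search was made because genes of the DNA replication programme often carry an E2F-type site. This string occurred in windows of 4 of the 8 genes, *Bard1*, *Brca2*, *Brip1* and *Rad51c*, and in 5.17% of all 32851 windows. CCAAT was found in windows of 5 of the 8 genes and in 37.4% of all windows, and TTTGAA, the CHR element of late cell cycle genes, in 2 of the 8 and in 17.9%. Capitals mark TTTNNCGC on either strand, and none overlapped a CCAAT or TTTGAA match. A match is a description of letters, not a site shown to be bound. The windows of *Brca1*, *Bard1*, *Brca2* and *Brip1* are shown because these genes were higher in cycling GFRA1-type germ, Sertoli, stromal and myoid cells. Their intervals did not overlap between cycling states in either library, while those of *Palb2* and *Rad51c* overlapped in GFRA1-type cells. The window of *Babam1* is shown because its level barely differed between cycling states in Sertoli cells.
Brca1 (chr11:101551906-101552205, minus strand): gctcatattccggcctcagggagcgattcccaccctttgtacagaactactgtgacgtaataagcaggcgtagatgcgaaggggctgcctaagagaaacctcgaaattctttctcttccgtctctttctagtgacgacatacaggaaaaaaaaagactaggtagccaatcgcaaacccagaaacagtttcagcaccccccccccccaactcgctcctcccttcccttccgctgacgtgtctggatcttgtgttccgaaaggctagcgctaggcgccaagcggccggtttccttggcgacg
Bard1 (chr1:71102923-71103222, minus strand): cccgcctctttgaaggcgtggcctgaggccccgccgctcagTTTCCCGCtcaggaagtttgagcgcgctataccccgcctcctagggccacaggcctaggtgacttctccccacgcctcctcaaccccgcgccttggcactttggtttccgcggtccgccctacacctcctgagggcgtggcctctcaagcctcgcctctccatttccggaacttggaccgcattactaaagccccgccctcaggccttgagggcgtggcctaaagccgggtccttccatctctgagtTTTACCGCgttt
Brca2 (chr5:150522371-150522670, plus strand): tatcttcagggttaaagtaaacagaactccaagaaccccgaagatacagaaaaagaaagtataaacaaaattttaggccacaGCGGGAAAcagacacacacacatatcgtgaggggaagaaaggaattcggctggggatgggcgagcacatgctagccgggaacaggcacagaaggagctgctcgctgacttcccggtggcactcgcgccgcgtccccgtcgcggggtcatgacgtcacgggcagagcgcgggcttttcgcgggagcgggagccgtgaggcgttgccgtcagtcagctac
Brip1 (chr11:86201144-86201443, minus strand): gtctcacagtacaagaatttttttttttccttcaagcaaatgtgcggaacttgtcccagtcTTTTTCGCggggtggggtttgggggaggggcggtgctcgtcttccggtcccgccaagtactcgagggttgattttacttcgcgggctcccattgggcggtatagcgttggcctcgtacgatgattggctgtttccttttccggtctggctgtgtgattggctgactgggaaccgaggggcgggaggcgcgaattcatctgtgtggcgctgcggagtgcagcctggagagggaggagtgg
Babam1 (chr8:71396605-71396904, plus strand): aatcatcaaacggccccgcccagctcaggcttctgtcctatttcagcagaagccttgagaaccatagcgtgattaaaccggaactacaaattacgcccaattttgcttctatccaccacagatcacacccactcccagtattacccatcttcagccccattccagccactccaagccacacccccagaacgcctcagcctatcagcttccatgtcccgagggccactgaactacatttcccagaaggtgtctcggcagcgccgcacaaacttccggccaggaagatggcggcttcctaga
The first base of the match lay in *Bard1* at positions -209 and 38 from the annotated start (counted from 0 at the start), *Brca2* at -168 and *Brip1* at -189. The windows of *Brca1* and *Babam1* did not hold it.

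The control table held 5812 cell barcodes and 120568700 UMIs (unique molecular identifiers, 1 per captured RNA molecule), and the *Brca1* vKO table held 9456 and 165062097. A minimum of 750 genes and a maximum of 10% mitochondrial UMIs left 5077 and 8712 cells, and 16 of these barcodes occurred in both libraries. Classes were set by marker pairs, *Ddx4* and *Dazl* for germ cells, *Clu* and *Amhr2* for Sertoli cells, *Dlk1* and *Dcn* for stromal cells and *Acta2* and *Myh11* for myoid cells. Germ cells with at least 10000 UMIs were split by *Gfra1* and *Ret* into a GFRA1-type (*Gfra1* and *Ret* encode the GDNF receptor of undifferentiated spermatogonia) and by *Kit* and *Stra8*, genes of differentiating spermatogonia, into a KIT/STRA8-type. Each class was then split by *Mki67* and *Top2a* into cycling and non-cycling cells. Cells above several class thresholds were left out, 7.39% of the control and 6.80% of the *Brca1* vKO library, as were those above none. A list of 6 germ genes that the gates did not use summed to 2106 CPM (UMIs per 1000000 UMIs of all cells in the sum) in cycling GFRA1-type cells of the control and 1682 of the *Brca1* vKO library, and to 73.6 and 60.6 in cycling Sertoli cells.

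*Brca1* was present in all classes, and in GFRA1-type germ, Sertoli, stromal and myoid cells its level was higher in cycling cells (the plot of levels by class). In the control library *Brca1* was at 50 CPM in the 76 non-cycling and at 78.9 CPM in the 127 cycling GFRA1-type germ cells. In the *Brca1* vKO library it was at 30.3 CPM in 50 non-cycling and at 47.8 CPM in 89 cycling cells of the same type. Cycling cells were thus higher in both libraries, by 1.58-fold in the control (1.31 to 1.91) and by 1.58-fold in *Brca1* vKO (1.15 to 2.21). In Sertoli cells, the somatic nurse cells of the tubule, *Brca1* was at 12.1 and 63.0 CPM in non-cycling and cycling control cells and at 11.8 and 47.2 CPM in those of the *Brca1* vKO library. The ratio of cycling to non-cycling Sertoli cells was 5.19 (4.65 to 5.80) in the control and 3.99 (3.66 to 4.34) in *Brca1* vKO. Stromal cells went from 3.69 to 93.6 CPM in the control and from 3.77 to 58.8 CPM in *Brca1* vKO. Myoid cells, the contractile cells around the tubule, went from 4.61 to 89.4 CPM and from 3.5 to 42.2 CPM. Among cycling control cells the order was stromal, myoid, KIT/STRA8-type, GFRA1-type and Sertoli, and the first 4 had overlapping intervals, from 73.2 to 109 for stromal and myoid cells and from 72.3 to 93.1 for both germ types, while Sertoli cells (59.4 to 66.8) lay below all 4.

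**Figure D1:**
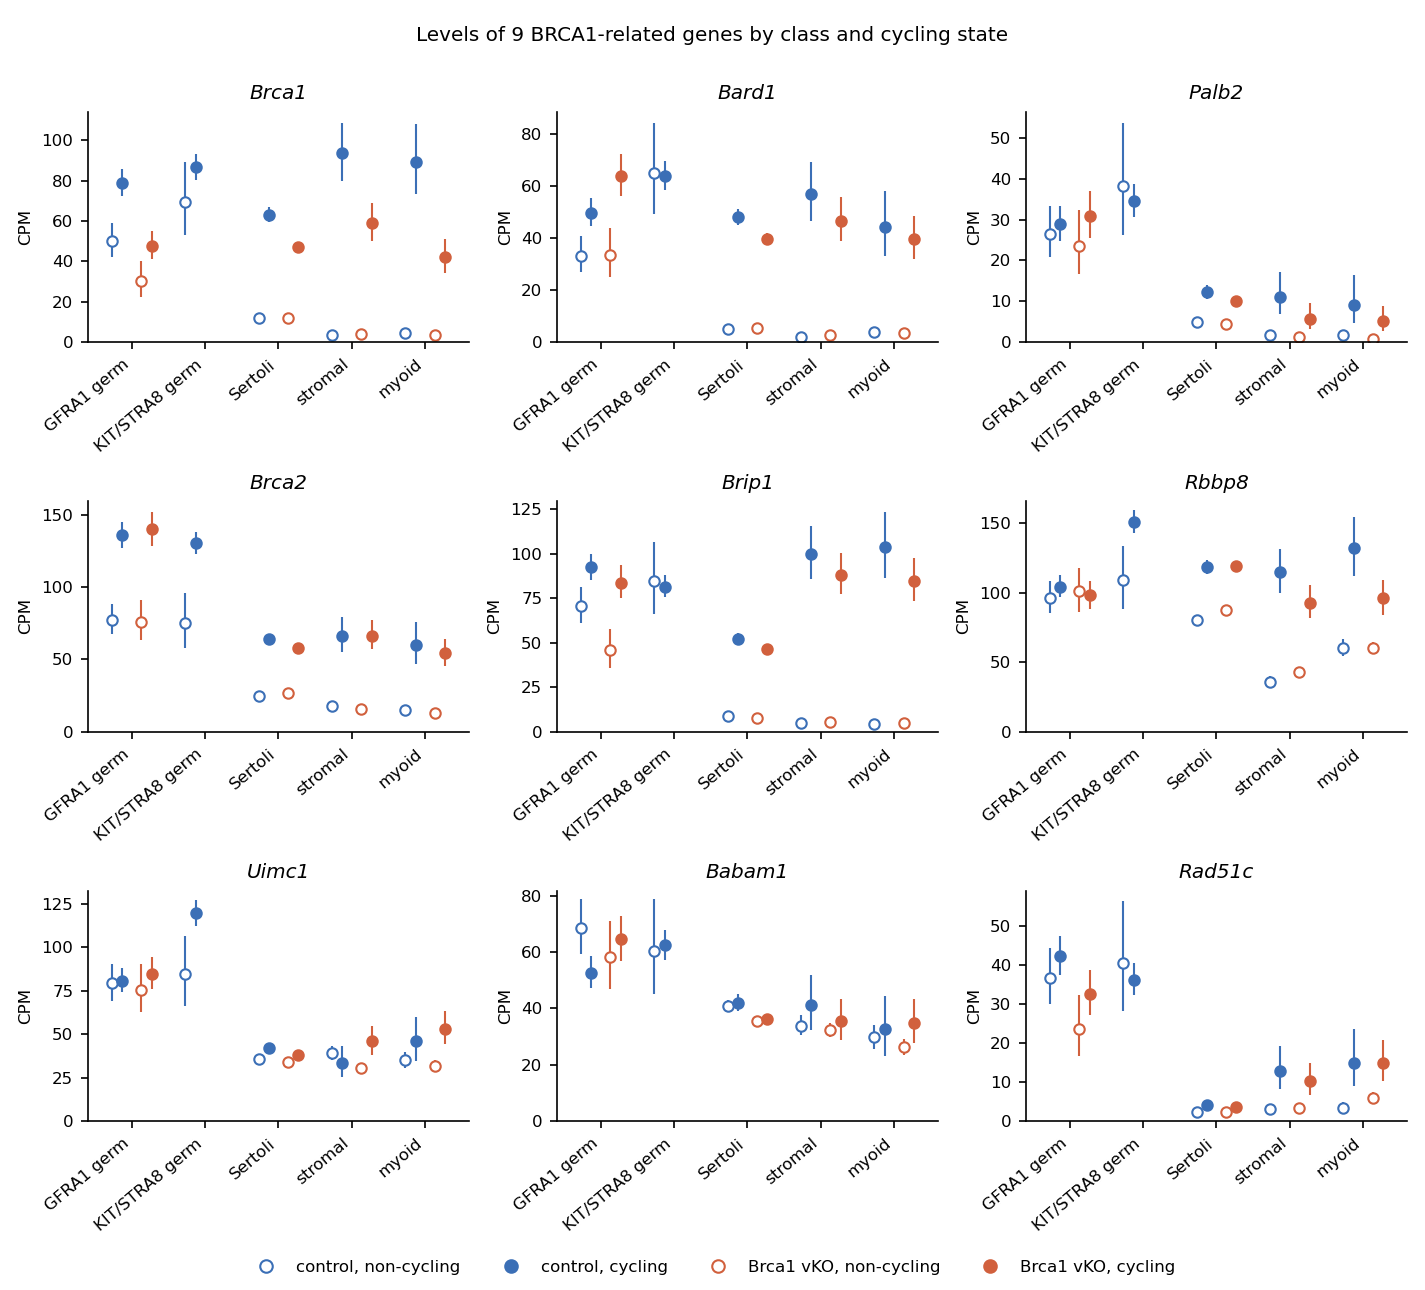
Level of each of the 9 genes (CPM, linear axis from 0) in 5 classes, with open points for non-cycling and filled points for cycling cells of the control (blue) and *Brca1* vKO (orange) library and bars for the exact Poisson 95% interval. KIT/STRA8-type cells of the *Brca1* vKO library (8 cells) are not drawn, and the panels show *Brca1*, *Bard1* and *Brip1*, near 0 in non-cycling stromal and myoid cells and at 39.6 CPM or more in cycling ones, and *Rad51c*, at 23.5 CPM or more in each germ sum drawn and at 15.0 or less in each somatic one.

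*Bard1*, the obligate partner of *Brca1*, had the same order of cycling states. GFRA1-type germ cells held 33.2 CPM when non-cycling and 49.7 CPM when cycling in the control, and 33.4 and 63.8 CPM in *Brca1* vKO. Sertoli cells went from 4.98 to 48.0 CPM in the control and from 5.51 to 39.7 CPM in *Brca1* vKO, ratios of 9.63 (8.21 to 11.4) and 7.20 (6.41 to 8.11). In stromal cells of the control *Bard1* was at 1.75 CPM (18 UMIs in 656 cells) when non-cycling and at 56.8 CPM when cycling, and in *Brca1* vKO at 2.71 and 46.6 CPM. Myoid cells held 4.01 and 44.3 CPM in the control and 3.58 and 39.6 CPM in *Brca1* vKO. Its ratio of cycling to non-cycling Sertoli cells was the highest of the 9 genes in both libraries.

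The genes that act after end trimming fell into different groups. *Brca2*, a mediator of strand exchange, was higher in cycling cells of both germ and Sertoli classes. It was at 77.3 and 136 CPM in non-cycling and cycling GFRA1-type control cells, and at 76.2 and 140 CPM in those of *Brca1* vKO. In Sertoli cells it was at 24.7 and 63.8 CPM in the control and at 26.4 and 58.1 CPM in *Brca1* vKO. *Palb2*, the bridge to BRCA1, was at 26.6 and 28.8 CPM in GFRA1-type control cells and at 23.5 and 30.9 CPM in those of *Brca1* vKO, with both ratios inside counting error of 1 (1.08, 0.827 to 1.44, and 1.31, 0.903 to 1.94). In Sertoli cells *Palb2* was low, 4.98 and 12.2 CPM in the control and 4.46 and 10.1 CPM in *Brca1* vKO, and was 2.45-fold (2.0 to 2.99) and 2.26-fold (1.94 to 2.65) higher in cycling cells. *Rad51c* was at 36.7 and 42.3 CPM in GFRA1-type control cells and at 23.5 and 32.6 CPM in those of *Brca1* vKO. In Sertoli cells it was at 2.40 and 4.24 CPM in the control and at 2.26 and 3.58 CPM in *Brca1* vKO.

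Of the genes that open or trim DNA ends, *Brip1* differed more between cycling states of the somatic classes than *Rbbp8* did. In GFRA1-type cells it was at 70.6 and 92.4 CPM in the control and at 45.8 and 83.8 CPM in *Brca1* vKO, and the *Brca1* vKO ratio turned to 0.976 when cells were thinned to 5000 UMIs. In Sertoli cells *Brip1* was at 8.66 and 51.9 CPM in the control and at 7.72 and 46.4 CPM in *Brca1* vKO, ratios of 6.0 (5.28 to 6.83) and 6.01 (5.43 to 6.65). In stromal cells the control ratio was 21.8 (15.8 to 30.8), from 4.57 to 99.7 CPM. *Rbbp8* was at 96.1 and 104 CPM in non-cycling and cycling GFRA1-type control cells and at 80.5 and 118 CPM in Sertoli control cells. Its ratio of cycling to non-cycling cells was 1.47 (1.39 to 1.55) in control and 1.36 (1.31 to 1.41) in *Brca1* vKO Sertoli cells, and 1.09 (0.942 to 1.25) and 0.973 (0.808 to 1.18) in GFRA1-type cells. Stromal cells showed the widest range for *Rbbp8*, from 36.0 to 115 CPM in the control and from 42.7 to 92.8 CPM in *Brca1* vKO.

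Of the BRCA1-A subunits, *Babam1* differed little between cycling states of Sertoli cells and *Uimc1* differed in some classes. *Babam1* was at 40.8 and 42.0 CPM in non-cycling and cycling Sertoli cells of the control and at 35.6 and 36.2 CPM in those of *Brca1* vKO, ratios of 1.03 (0.941 to 1.12) and 1.02 (0.951 to 1.09). In GFRA1-type cells it was lower in cycling cells of the control, 68.5 against 52.7 CPM (0.769, 0.644 to 0.922), and not in those of *Brca1* vKO, 58.2 against 64.5 CPM (1.11, 0.871 to 1.42). *Uimc1* was at 35.8 and 42.1 CPM in control Sertoli cells and at 34.1 and 37.8 CPM in *Brca1* vKO Sertoli cells. In GFRA1-type cells *Uimc1* was at 79.4 and 80.9 CPM in the control and at 75.5 and 84.8 CPM in *Brca1* vKO. It was higher in cycling KIT/STRA8-type control cells, 84.6 against 120 CPM (1.42, 1.12 to 1.82). In *Brca1* vKO it was also higher in cycling stromal cells, 30.7 against 45.9 CPM (1.495, 1.22 to 1.82), and in cycling myoid cells, 31.8 against 53.2 CPM (1.67, 1.36 to 2.05). In the control the stromal and myoid ratios of *Uimc1* were 0.856 (0.641 to 1.12) and 1.31 (0.962 to 1.77).

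Counted over all 9 genes, with a 1.5-fold higher level in cycling cells as the limit, Sertoli cells gave 6 of 9 in both libraries (*Brca1*, *Bard1*, *Palb2*, *Brca2*, *Brip1* and *Rad51c*). Of all genes with at least 50 UMIs in the 2 sums, 7.48% passed that limit in the control and 6.93% in *Brca1* vKO. Stromal cells gave 7 of 9 in each library, where 13.8% and 13.6% of all genes passed. One of the 7 was *Palb2*, which had fewer than 50 UMIs there, and 6 of the 8 members above that minimum passed. Myoid cells gave 7 of 9 in the control and 8 of 9 in *Brca1* vKO, where 14.1% and 13.5% of all genes passed. Above the minimum these were 5 of 7 in the control, without *Palb2* and *Rad51c*, and 7 of 8 in *Brca1* vKO, without *Palb2*. GFRA1-type germ cells gave 2 of 9 in the control, *Brca1* and *Brca2*, against 10.9% of all genes, with *Bard1* just below the limit at 1.495. They gave 4 of 9 in *Brca1* vKO, with *Bard1* and *Brip1* added, against 6.56%, although *Brip1* turned below 1 after thinning. With every cell thinned to 5000 UMIs the count in GFRA1-type control cells was 0, and with the mean over cells it was 1. KIT/STRA8-type cells of the control gave 1 of 9, *Brca2* (1.73, 1.35 to 2.26), against 17.4%. All 9 genes had at least 50 UMIs in these germ and Sertoli sums.

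**Figure D2:**
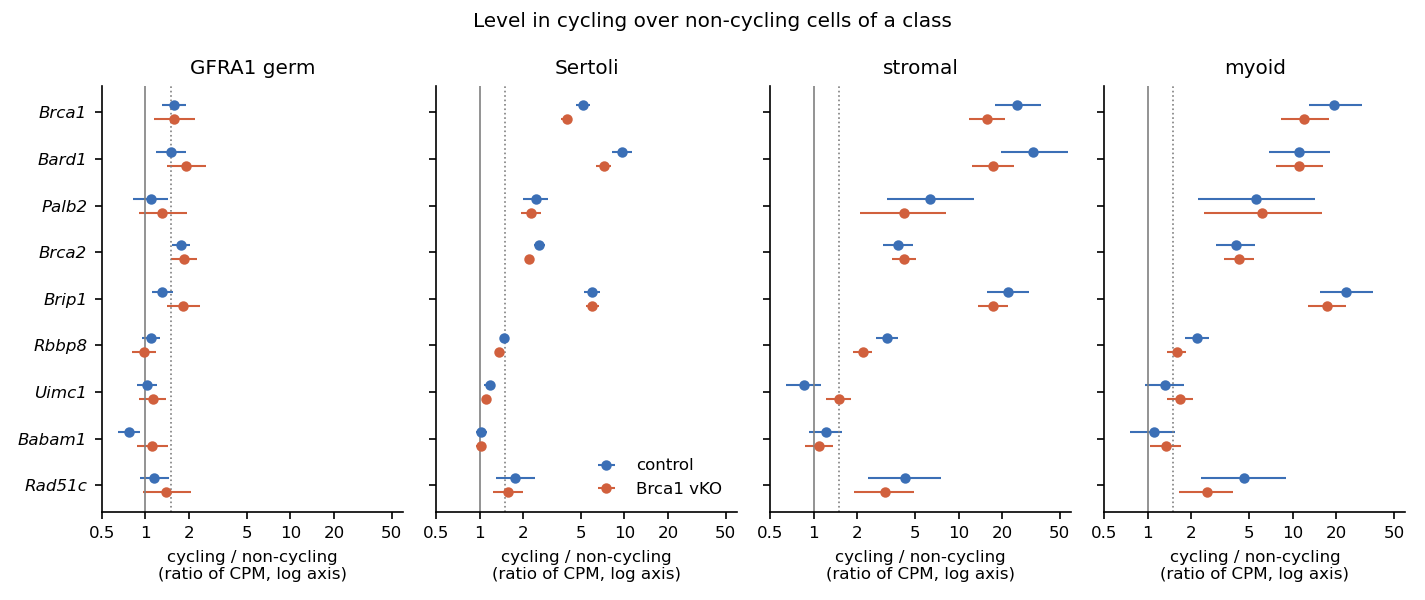
Level in cycling over non-cycling cells (ratio of CPM, log axis) for each gene and class, control in blue and *Brca1* vKO in orange, with exact 95% intervals, a solid line at 1 and a dotted line at 1.5. In Sertoli, stromal and myoid cells *Brca1*, *Bard1* and *Brip1* lie furthest to the right in both libraries, with ratios of at least 3.99, and in GFRA1-type germ cells no gene is above 1.91.

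Germ cells gated as non-cycling still scored high for S-phase genes. A list of 16 S-phase genes, such as *Mcm2* and *Pcna*, had 10 members at least 1.5-fold higher in cycling GFRA1-type control cells, with a median ratio of 1.55, and 16 of 16 in stromal control cells, with a median of 4.68. A list of 12 G2/M genes, such as *Cdk1*, had all 12 above the limit in both, with medians of 4.37 and 48.1. Of all genes, 10.9% passed the limit in GFRA1-type and 13.8% in stromal control cells. When cells were split by that S-phase list as well, a choice made after seeing the data, 67 of the 76 non-cycling GFRA1-type control cells were above its threshold of 5.91 UMIs per 10000, and so were all 127 cycling ones. In the *Brca1* vKO library 46 of 50 and 89 of 89 were above it. The threshold was set over all kept cells of both libraries, not over germ cells. Between cycling control cells, 11 of the 16 list genes were at least 1.5-fold higher in GFRA1-type than in Sertoli cells, with a median ratio of 1.91. Of all genes, 35.3% were that much higher between the same cells. Whether the germ cells above the threshold were in S phase was not tested. In Sertoli cells the 4 states each held at least 223 cells, and the members separated. *Brca1* in the control was at 4.97 CPM where both scores were low, at 27.4 CPM where the S-phase score alone was high, at 31.6 CPM where *Mki67* and *Top2a* alone were high, and at 81.6 CPM where both were high. *Bard1* was at 2.80, 9.61, 34.9 and 55.8 CPM in the same 4 states, so that its level with the S-phase score alone was below that with *Mki67* and *Top2a* alone. *Brip1* was at 2.40, 21.9, 26.1 and 67.2 CPM. *Brca2* was at 16.0, 43.1, 41.5 and 77.0 CPM, and *Rad51c* at 1.72, 3.83, 2.49 and 5.28 CPM. *Babam1* stayed between 40.8 and 42.2 CPM. The *Brca1* vKO library gave the same order of *Bard1* states, 2.84, 9.78, 31.7 and 42.9 CPM, and *Brca1* there was at 5.85, 21.4, 26.3 and 55.5 CPM.

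**Figure D3:**
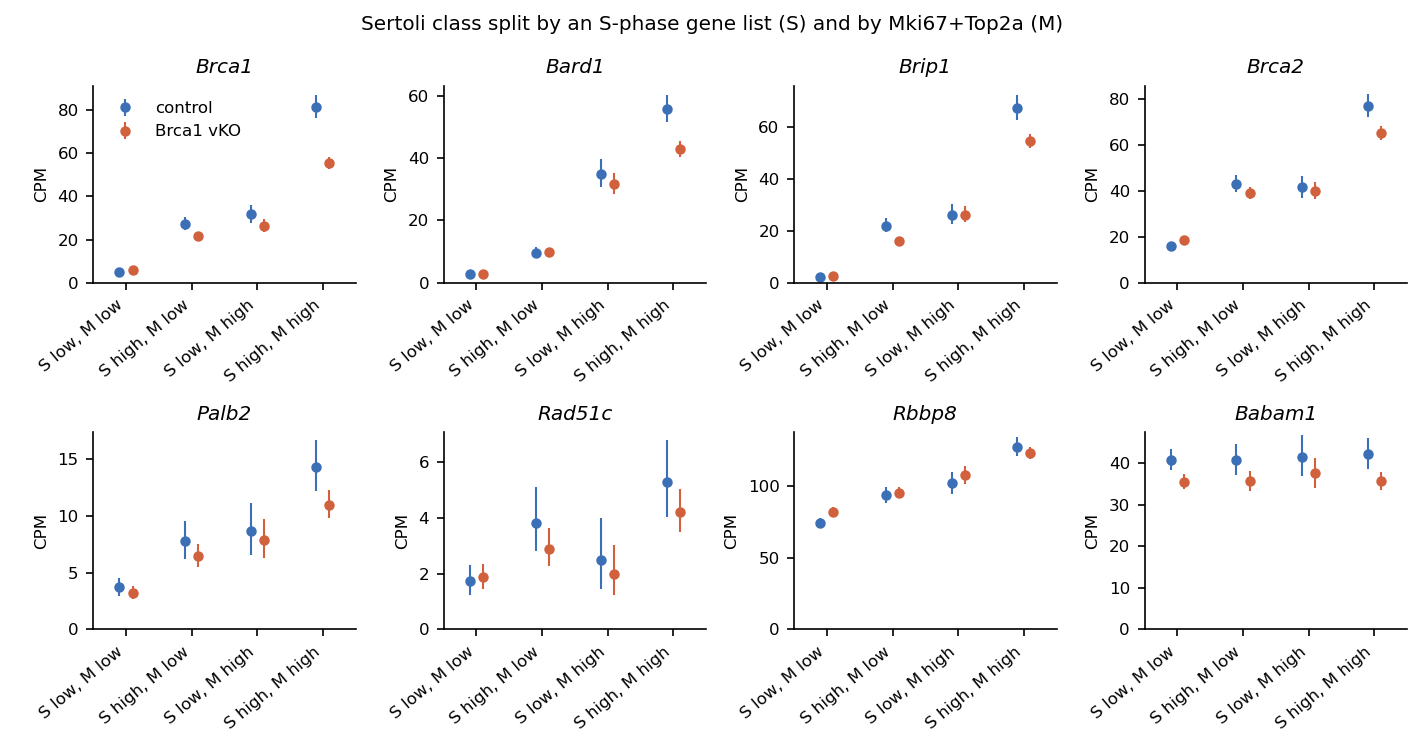
Levels (CPM, linear axes from 0) of 8 genes in Sertoli cells split by a 16-gene S-phase list (S) and by *Mki67* and *Top2a* (M), control in blue and *Brca1* vKO in orange, with exact Poisson 95% intervals. *Brca1*, *Bard1* and *Brip1* are highest where both scores are high, *Bard1* is at 9.61 and 34.9 CPM in the middle states of the control, and *Babam1* is flat.

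Other genes of homologous recombination, 28 in a list, gave 13 at least 1.5-fold higher in cycling Sertoli cells of the control and 12 in *Brca1* vKO, with medians of 1.45 and 1.39, and none at least 1.5-fold lower. Of all genes, 7.48% and 6.93% were that much higher in these contrasts, and 5.88% and 4.4% that much lower. Among the highest ratios in the control were those of *Rad51ap1* (8.87) and *Rad54b*, a translocase (5.51). The lowest were *Sfr1* (0.925), *Sem1* (0.888), a BRCA2-binding protein also found in the proteasome, and *Babam2* (0.877), another BRCA1-A subunit. The 9 genes had a median of 2.45 in the control and 2.20 in *Brca1* vKO in the same contrast. In GFRA1-type cells 6 of 27 measured genes of that list passed the limit in each library, against 10.9% and 6.56% of all genes. *Rad54b*, *Exo1* and *Rad51ap1* were among them in both.

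Germ cells held more of most members than Sertoli cells on the same side of the *Mki67* and *Top2a* gate. Between non-cycling cells, 8 of 9 were at least 1.5-fold higher in GFRA1-type germ cells in both libraries, all but *Rbbp8*, against 34.8% of all genes in the control and 34.2% in *Brca1* vKO. Between cycling cells, the count was 5 of 9 in the control (*Palb2*, *Brca2*, *Brip1*, *Uimc1* and *Rad51c*), against 35.3% of all genes. It was 7 of 9 in *Brca1* vKO, with *Bard1* and *Babam1* added, against 32.8%. *Rad51c* had the largest ratio in each of the 4 comparisons. Its level was 9.97-fold (7.73 to 13.0) higher in cycling germ than in cycling Sertoli cells of the control and 9.13-fold (7.12 to 11.7) in *Brca1* vKO. Non-cycling cells gave 15.3-fold (11.4 to 20.6) and 10.4-fold (7.08 to 15.0). The germ marker list stood at 3.21% of its germ level in non-cycling control Sertoli cells, and that share of the germ level of *Rad51c* would be 1.30 CPM beside the 2.40 CPM measured. *Brca1* itself differed little between cycling germ and Sertoli cells, with ratios of 1.25 (1.13 to 1.39) in the control and 1.01 (0.866 to 1.18) in *Brca1* vKO. Between non-cycling ones its ratios were larger, at 4.12 (3.39 to 4.98) and 2.56 (1.88 to 3.42). The non-cycling control cells were not alike by the S-phase list, with 67 of 76 GFRA1-type and 536 of 1747 Sertoli cells above its threshold. Between those above it, *Brca1* was at 51.3 CPM in GFRA1-type and 27.4 CPM in Sertoli cells, and *Bard1* at 34.3 and 9.61 CPM.

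Between the germ types of the control, cycling KIT/STRA8-type cells (167 cells) held 151 CPM of *Rbbp8* against 104 in GFRA1-type cells, a ratio of 1.45 (1.32 to 1.59). *Uimc1* was at 120 against 80.9 CPM (1.48, 1.33 to 1.65) and *Bard1* at 63.8 against 49.7 CPM (1.28, 1.12 to 1.48). *Brca1* was at 86.6 and 78.9 CPM (1.10, 0.979 to 1.23), and *Brca2* at 131 and 136 CPM (0.961, 0.879 to 1.05). None of the 9 reached 1.5-fold, which 16.9% of all genes did. The *Brca1* vKO library had 8 KIT/STRA8-type cells, against 188 in the control, and its 5 cycling cells gave 12 UMIs of *Brca1*, 56.7 CPM (29.3 to 99.0), so that the members could not be compared there.

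Between the libraries, *Brca1* was lower in cycling cells of all 4 classes with enough cells. The ratio of *Brca1* vKO to control was 0.606 (0.509 to 0.718) in GFRA1-type germ cells, where *Cre* is active, 0.750 (0.696 to 0.808) in Sertoli, 0.628 (0.502 to 0.787) in stromal and 0.472 (0.355 to 0.626) in myoid cells. In non-cycling cells it was 0.607 (0.429 to 0.845) in GFRA1-type germ, 0.976 (0.867 to 1.10) in Sertoli, 1.02 (0.682 to 1.55) in stromal and 0.759 (0.466 to 1.25) in myoid cells. The cycling myoid cells differed in S-phase score, with 88 of 163 in *Brca1* vKO and 23 of 62 in the control below its threshold. Among those above it *Brca1* was at 71.8 CPM in *Brca1* vKO and 119.5 CPM in the control. *Brca1* was the only member at least 1.5-fold lower in cycling GFRA1-type cells, where 11.2% of all genes were. In cycling stromal and myoid cells *Brca1* was the only member with at least 50 UMIs that was, against 4.15% and 4.07% of all genes. None of the 9 was in cycling Sertoli cells, where 2.37% were. None was at least 1.5-fold higher in any of these, where the shares of all genes were 7.1% in GFRA1-type, 3.87% in Sertoli, 4.42% in stromal and 5.9% in myoid cells. The *Palb2* ratios in cycling stromal (0.514, 0.245 to 1.06) and myoid cells (0.556, 0.225 to 1.39) rested on fewer than 50 UMIs, with intervals that held 1, and the myoid ratio turned to 1.37 under a class gate of 2 UMIs per 10000 and to 1.49 after thinning.

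Some other genes of the pathway were lower in the same somatic sums and others were not. Of the 28-gene list, none was at least 1.5-fold higher in any of the 4 classes, and 0 of 27 measured were lower in GFRA1-type, 0 of 28 in Sertoli, 2 of 25 in stromal and 4 of 22 in myoid cells, with medians of 1.02, 0.939, 0.897 and 0.820. Of all genes, 11.2%, 2.37%, 4.15% and 4.07% were at least 1.5-fold lower in the same order. *Rad51ap1* had a ratio of 0.967 in cycling GFRA1-type cells, 0.752 in Sertoli, 0.796 in stromal and 0.663 in myoid cells. *Rad54b* had 1.04, 0.921 (0.824 to 1.03), 0.719 and 0.595 in the same order. *Babam2* had 1.02, 1.05, 1.28 (1.04 to 1.58) and 0.998, *Sfr1* 0.95, 1.01, 1.15 (1.06 to 1.25) and 1.16 (1.01 to 1.33), and *Sem1* 1.06, 1.0, 0.897 and 0.940. Of the S-phase list, the median ratio was 1.13 in GFRA1-type, 0.944 in Sertoli, 0.874 in stromal and 0.887 in myoid cells. For the G2/M list the medians were 1.04, 0.8475, 1.05 and 1.002 in the same order. In Sertoli cells all 12 genes of the G2/M list were lower in *Brca1* vKO, with ratios from 0.7755 to 0.885. The median depth of cycling cells was 49774 UMIs in GFRA1-type cells of the control and 42224 in *Brca1* vKO, and 19762 and 13816 in myoid cells. The Sertoli marker list stood at 88.8 CPM in cycling GFRA1-type cells of the control and at 174.5 in *Brca1* vKO, and the neutrophil list at 1.05 and 1035 CPM in the non-cycling ones. The part of depth, of S-phase content, of RNA of other cells and of the allele copy number in these ratios was not tested, and with 1 library a genotype they cannot be told apart from a difference between libraries.

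**Figure D4:**
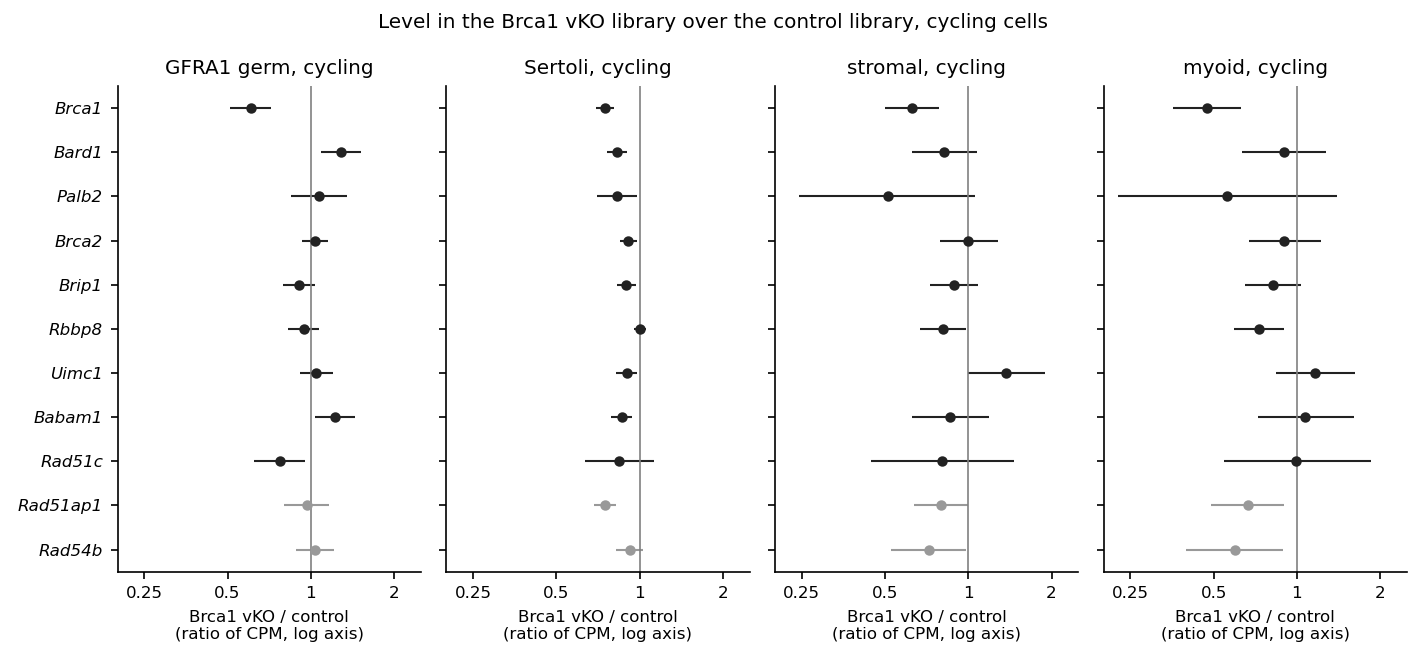
Level in the *Brca1* vKO over the control library (ratio of CPM, log axis) in cycling cells of 4 classes, with exact 95% intervals and a line at 1. Black points are the 9 genes and grey points *Rad51ap1* and *Rad54b*, and *Brca1* lies left of 1 in each panel while *Rad51ap1* is at 0.967 in GFRA1-type germ cells and at 0.752 in Sertoli cells.

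The partner genes in cycling GFRA1-type cells had ratios on both sides of 1. *Bard1* had a ratio of 1.28 (1.08 to 1.52), *Babam1* 1.22 (1.04 to 1.44), *Palb2* 1.07 (0.844 to 1.35), *Uimc1* 1.05 (0.911 to 1.21), *Brca2* 1.03 (0.925 to 1.15), *Rbbp8* 0.941 (0.828 to 1.07) and *Brip1* 0.907 (0.790 to 1.04). *Rad51c* was the other member whose interval lay below 1, at 0.772 (0.620 to 0.956) in cycling and 0.641 (0.430 to 0.937) in non-cycling cells. *Brip1* was at 0.649 (0.490 to 0.851) in non-cycling cells. Among non-cycling GFRA1-type cells 3 of the 9, *Brca1*, *Brip1* and *Rad51c*, were at least 1.5-fold lower in *Brca1* vKO, against 6.93% of all genes, and none was that much higher, against 7.56%. The number of *Bard1* UMIs per 100 *Brca1* UMIs, which does not depend on the total of the sum, was 62.9 in cycling GFRA1-type cells of the control and 133 in *Brca1* vKO, a ratio of 2.12 (1.66 to 2.70). It was 76.2 and 84.0 in cycling Sertoli cells (1.10, 0.986 to 1.23), 60.7 and 79.2 in stromal (1.31, 0.914 to 1.86) and 49.5 and 93.9 in myoid cells (1.90, 1.20 to 3.0).

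Across 28 sums of class, state and library and 13322 genes, the genes whose log2 level was most like that of *Brca1* were *Brip1* (Pearson r = 0.95), *Efcab11* (0.95), *Kntc1* (0.94), *Spdl1* (0.94) and *Mastl* (0.93). *Kntc1* and *Spdl1* act at the kinetochore and *Mastl* is a mitotic kinase. *Bard1* ranked 15 (0.92), *Brca2* 99, *Rbbp8* 211, *Palb2* 342, *Rad51c* 569, *Uimc1* 668 and *Babam1* 2466. The 28 sums come from 2 libraries and share depth within a class, and the correlation is across sums that are not independent.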

How the data were processed

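Single-cell libraries of dissociated PD7 testes, 1 per genotype, were made on the 10x Genomics platform. The authors aligned the reads to mm10 and deposited unnormalized UMI counts per gene and barcode from Cell Ranger 6.0.2, before their filter on cells. More *Brca1* vKO cells were loaded, and whether this affected depth per cell was not tested. Here the study's filter was applied (at least 750 genes, at most 10% mitochondrial UMIs). For each marker pair, UMIs per 10000 were log-transformed and a threshold was set by Otsu's method over both libraries. It was 3.06 for germ, 5.38 for Sertoli, 6.27 for stromal, 8.48 for myoid, 2.31 for cycling, 1.83 for GFRA1-type and 1.56 for KIT/STRA8-type cells. Counts were summed per library, class and state and given as CPM of that sum's UMIs. Intervals are exact Poisson and conditional intervals at 95% from scipy 1.17.1 under Python 3.11.15, checked on simulated data. They treat UMIs as independent molecules. A count of 3 UMIs was taken as the floor. Ratios were counted past 1.5-fold, and shares of all genes are over genes with at least 50 UMIs in the 2 sums. Likeness to *Brca1* was Pearson's r of log2(CPM + 10) over sums of at least 200000 UMIs. Scrublet in scanpy 1.11.5 marked 3.17% of control and 2.86% of *Brca1* vKO cells as doublets, which were removed only in an alternative. Coordinates came from GENCODE on GRCm38, another annotation release than the authors' on the same assembly, and promoters from RefSeq.

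The 9 members, the marker lists and the alternatives were chosen with earlier results of these data known. The text names all 9 members, the gate markers, the 3 highest and 3 lowest other recombination genes by cycling ratio in control Sertoli cells, and the 5 genes most like *Brca1*. One gene of that rule is not reported here. Differential expression across pooled cells, as in the study, was not repeated, because cells are not replicates.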

Additional observations from a re-analysis of the deposited data

Results flagged for a closer look

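For 2 members the ratio of the *Brca1* vKO to the control library lay on opposite sides of 1 in cycling GFRA1-type germ cells and in cycling Sertoli cells, with intervals that did not hold 1. *Bard1* was at 1.28 (1.08 to 1.52) in the germ cells and at 0.827 (0.761 to 0.899) in the Sertoli cells. *Babam1*, a BRCA1-A subunit, was at 1.22 (1.04 to 1.44) and at 0.862 (0.789 to 0.942). The Sertoli values were not particular to these 2 genes, since the 9 members had a median of 0.862 there and the G2/M list ran from 0.7755 to 0.885. Non-cycling GFRA1-type cells did not show the higher germ level. There *Bard1* was at 33.2 CPM in the control and 33.4 CPM in *Brca1* vKO, and *Babam1* at 68.5 and 58.2 CPM. The difference between the classes was not tested, since each genotype had 1 library, and the intervals cover counting error only.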

How the results depend on the processing

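Values were recomputed under 13 alternatives. Without the filter on cells, with Scrublet doublets removed, with counts scaled without mitochondrial, ribosomal protein and haemoglobin genes, with germ cells of any depth, or with thresholds set in each library, every value that could be computed kept its direction and lay within its interval, or within 1.5 times for a count. Other alternatives moved many values past these bounds. UMIs per cell moved 61 values and left 51, and thinning to 5000 UMIs moved 40, reversed 2 and left 70. A mitochondrial limit of 5% moved 17 and left 83, and the mean over cells moved 15 and left 97. Only some of the moved values are named here. A mitochondrial limit of 5% gave a *Brca1* ratio of *Brca1* vKO to control of 0.412 in cycling GFRA1-type cells. It gave a *Rbbp8* ratio of KIT/STRA8-type to GFRA1-type cells of 1.59. A class gate of 2 UMIs per 10000 reversed *Palb2* in cycling myoid cells (1.37), and thinning cells to 5000 UMIs reversed it too (1.49), as it did the cycling ratio of *Brip1* in GFRA1-type *Brca1* vKO cells (0.976). Thinning also gave a *Brca1* ratio of 0.677 in cycling Sertoli cells, a *Uimc1* ratio of KIT/STRA8-type to GFRA1-type cells of 1.12, and 2 members above 1.5-fold in cycling KIT/STRA8-type control cells. The number of members at least 1.5-fold higher in cycling GFRA1-type control cells was 4 with a cycling gate of 1 UMI per 10000, 0 after thinning, 1 as a mean over cells and 5 as UMIs per cell. In KIT/STRA8-type control cells it was 2 as a mean over cells and 4 as UMIs per cell, and in GFRA1-type *Brca1* vKO cells it was 8 as UMIs per cell. UMIs per cell, which do not divide by depth, also gave 8 members higher in cycling germ than Sertoli cells of the control. Median depth there was 49774 UMIs in the GFRA1-type germ and 23954 UMIs in the Sertoli cells. The same measure gave a *Brca1* ratio of *Brca1* vKO to control of 0.352 in cycling myoid cells. At a limit of 2-fold the counts were 0, 0 and 0 in GFRA1-type control, GFRA1-type *Brca1* vKO and KIT/STRA8-type control cells, and 3 and 4 for germ over Sertoli cells of the control and *Brca1* vKO library. The share of all genes is not given under these alternatives, so these counts are not read as a result about the members. The cause of the changes was not tested. A cycling gate from the S-phase list left fewer than 20 non-cycling germ cells, so no germ count could be given under it. No paired analysis was possible because each genotype had 1 library and no result came from a test. Depth limits the low members most, since *Palb2* and *Rad51c* gave 11 to 35 UMIs in cycling stromal and myoid sums.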

Other observations

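Germ cells outside both spermatogonial types also held the members. In the 48 control cells above both thresholds *Brca1* was higher in non-cycling (110 CPM, 85.8 to 138, 15 cells) than in cycling cells (72.6 CPM, 60.4 to 86.5, 33 cells), the opposite order to GFRA1-type cells. In *Brca1* vKO it was at 28.3 CPM (11.4 to 58.4, 7 UMIs in 8 cells) and 57.2 CPM (43.5 to 74.0, 23 cells). The intervals of the non-cycling and cycling cells overlapped in both libraries. In the same kind of cells *Brca2* was at 127 CPM in cycling cells of the control and at 138 CPM in those of *Brca1* vKO, and *Rad51c* at 38.0 and 39.5 CPM. In cells above neither threshold cycling control cells held 75.7 CPM of *Brca1* and 140 CPM of *Brca2*, and non-cycling ones 43.5 and 84.1 CPM. In *Brca1* vKO the cycling cells of that kind held 41.5 CPM of *Brca1* (27.6 to 60), 66.7 CPM of *Bard1* (48.7 to 89.3) and 124 CPM of *Brca2* (99.3 to 154).

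Germ cells with fewer than 10000 UMIs numbered 310 in the control and 42 in *Brca1* vKO, with a median depth of 3180 and 3268 UMIs. In control cells of this kind *Brca1* was at 31.0 CPM (17.4 to 51.2) in non-cycling and at 31.2 CPM (19.8 to 46.9) in cycling ones, on 15 and 23 UMIs. *Babam1* was at 76.6 and 74.7 CPM there. The gates are rates per 10000 UMIs, 3.06 for germ and 2.31 for cycling cells. At this depth very few UMIs of a marker pair decide both calls, so these levels are not read as a result about cycling.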
